A study of Oryza sativa Japonica Group with 8 samples.

Results

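The loci described here were expressed in both flowers and roots of rice and were at low levels in leaves and in grains. They were chosen from the measured values. A locus was a member when its lowest value among flower buds, flowers and roots sampled before flowering was at least 10 FPKM (fragments mapped per kilobase of a transcript, scaled to each library's mapped total), and when that value, with 1 FPKM added, reached 4 times the highest leaf or seed value, also with 1 FPKM added. Of 31187 loci, 30 (0.0962%) passed. Among the 6074 loci with at least 10 FPKM in all 3 of those libraries, the members were 0.494%. The values that chose the members are given below as a description, with no test.

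The libraries were of poly(A) RNA from greenhouse-grown japonica rice (Oryza sativa), with no other genotype or treatment in the labels. Buds were cut before flowering, and flowers on the day they opened. For flag leaves and for roots there was a library before flowering, mixing stages from panicle initiation up to the eve of flowering, and a library after flowering, which mixed later stages. These are called early and late below. The other 2 libraries were of milk grains and of mature seeds. Each of the 8 groups held 1 library, so values carry no replicate error and no p-value, and what is compared are libraries, not organs or stages.

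Flowers and roots are both fed by the leaves. Flower buds hold the developing anthers and ovary inside the husk, and at flowering the husk opens and pollen is shed. Roots take up water and minerals, and grow from tips of dividing cells, while flag leaves are the main source of sugar for the panicle. Milk grains are filling with starch and storage protein, and mature seeds have dried and hold the embryo. A whole organ is a mix of cell types, so fewer cells of a type and less RNA per cell cannot be told apart in these libraries.

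The library labelled roots after flowering, called the late root-labelled library below, was not used in the rule and had the profile of a leaf library. Among the 6074 loci with at least 10 FPKM in flower buds, flowers and early roots, 6012 (99.0%) were within 2-fold of late leaves in it, with 1 FPKM added. Against early roots, 12.0% of these loci were at least 2-fold higher in it and 21.5% were lower. In late against early leaves 6.69% were higher and 5.97% lower by that much, of those with 5 FPKM in either. Roots are therefore represented by the before-flowering library alone. The summed FPKM of the 8 libraries lay between 569819 and 611306, and the number of sequenced fragments behind them is not given in the sources used here, so the precision of each value is unknown. The deposited table pairs none of its locus identifiers with a gene name, and 0 of the 31187 identifiers matched the gene table at hand, so the loci are named by identifier and by position on the coordinates of MSU Rice Genome Annotation Project Release 7. Exons, UTRs and sequences were not used here.

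**Figure D1:**
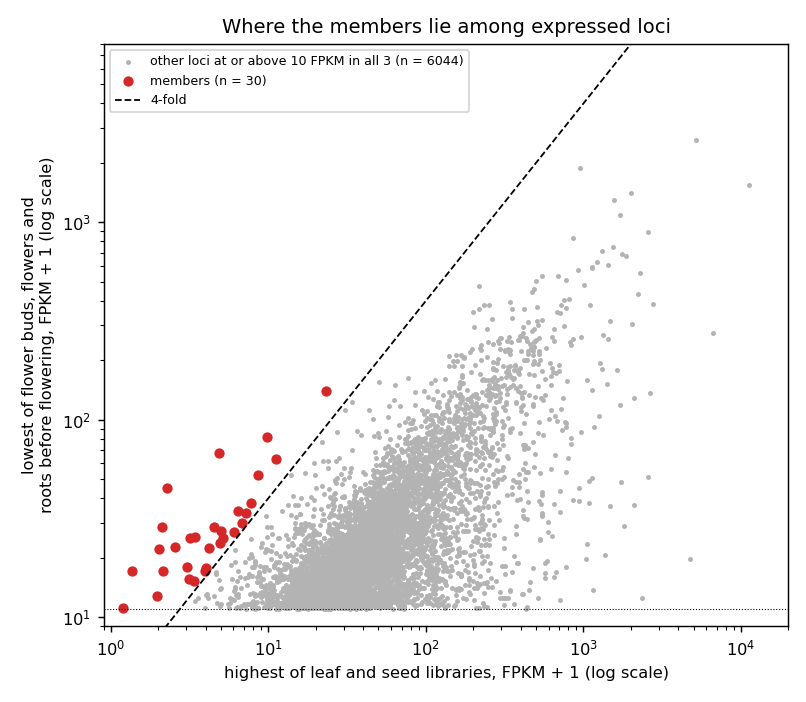
Each point is a locus with at least 10 FPKM in flower buds, flowers and early roots, placed by the lowest of those values (vertical axis, FPKM + 1, log scale) and by the highest of the leaf and seed libraries (horizontal axis, FPKM + 1, log scale). The 30 members (red) lie above the dashed 4-fold line, and the other 6044 loci (grey) lie below it.

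The members were moderately abundant. In flower buds they lay between 10.2 and 1238 FPKM with a median of 38.8, and 11 had at least 100 FPKM. The range was 13.6 to 686 FPKM in flowers, with a median of 33.7 and 4 members at or above 100. Roots before flowering had 11.7 to 139 FPKM, a median of 33.9 and 3 members at or above 100. The counts at 100 FPKM were not made over other loci. The medians of the 6074 loci that reached 10 FPKM in these libraries were 28.4, 28.4 and 25.1 FPKM. Together the members took 0.657% of the summed FPKM in flower buds, 0.380% in flowers and 0.243% in early roots. Their share was between 0.00515% and 0.0178% in the leaf and seed libraries. Such shares are led by the most abundant members. XLOC_066037 alone had 1238 FPKM in flower buds and 686 in flowers, against 24.1 in early roots, and shares without it were not computed.

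**Figure D2:**
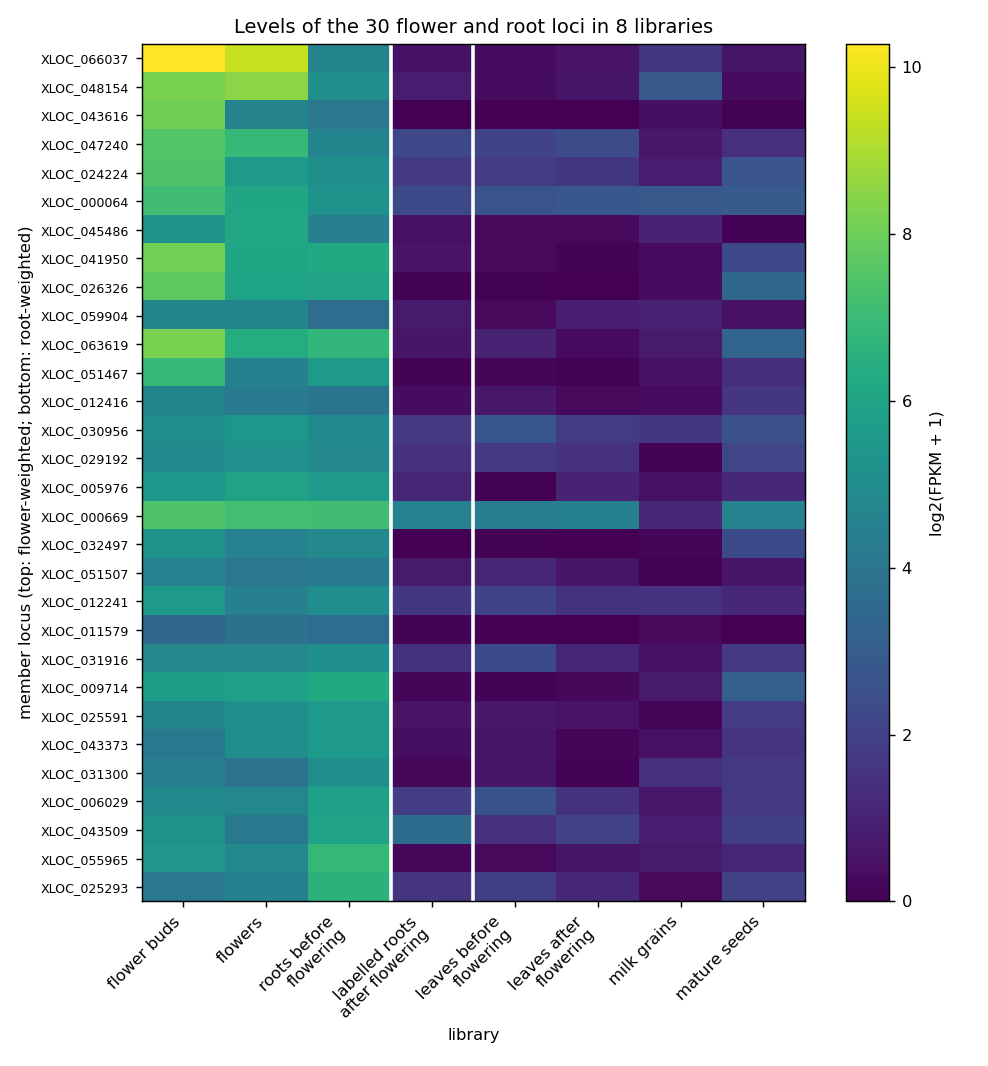
Levels of the 30 members (rows) in the 8 libraries (columns) as log2(FPKM + 1), ordered from loci weighted towards flowers (top) to loci weighted towards roots (bottom). White lines set off the late root-labelled library, in which 28 of the 30 members are at or below their highest leaf or seed value.

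XLOC_000669 (chromosome 1, 8767689 to 8773531) had the highest level that was held in all 3 libraries. It had 173 FPKM in flower buds, 143 in flowers and 139 in early roots. Its values elsewhere were 20.2 FPKM in early leaves, 22.04 in late leaves, 22.8 in the late root-labelled library, 1.21 in milk grains and 22.2 in mature seeds. The flower and root values were thus close together, and milk grains stood far below the other low libraries. It was the only member with at least 10 FPKM in a leaf library.

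XLOC_063619 lies in a span shared by 2 loci (chromosome 9, 3654894 to 3665430). Its levels were 297 FPKM in flower buds, 80.7 in flowers and 110.4 in early roots. It had 1.04 and 0.221 FPKM in early and late leaves, 0.521 in the late root-labelled library, 0.662 in milk grains and 8.85 in mature seeds. Mature seeds alone among the low libraries came above 2 FPKM.

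XLOC_041950 (chromosome 5, 2080594 to 2082760) had 269.6 FPKM in flower buds, 66.5 in flowers and 75.6 in early roots. Leaves had 0.199 FPKM before and 0.0591 after flowering, the late root-labelled library 0.461, milk grains 0.238 and mature seeds 3.83. Its root value was close to that of open flowers, and buds were above both.

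XLOC_026326 (chromosome 2, 19954552 to 19955660) had 209.9 FPKM in flower buds, 62.1 in flowers and 63.1 in early roots. Leaves had 0.0477 FPKM before and 0.0261 after flowering, the late root-labelled library 0.0384, milk grains 0.281 and mature seeds 10.2. As at XLOC_041950, buds stood above early roots and open flowers, and mature seeds held the highest of the low values.

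XLOC_009714 lies in a span of chromosome 10 that holds 31 loci (21375867 to 21638425), so its own limits are not known. It had 51.5 FPKM in flower buds, 58.4 in flowers and 74.6 in early roots, so that early roots stood highest and buds lowest of the 3. It had 0.0635 FPKM in early leaves, 0.167 in late leaves, 0.111 in the late root-labelled library, 0.664 in milk grains and 7.66 in mature seeds.

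XLOC_005976 (chromosome 1, 34043139 to 34045426) had the widest margin over leaves and seeds of all members, 19.7 times with 1 FPKM added. It had 43.98 FPKM in flower buds, 59.9 in flowers and 45.2 in early roots. Leaves had 0.0445 FPKM before and 1.01 after flowering, the late root-labelled library 1.08, milk grains 0.359 and mature seeds 1.28. The flower and root values were close together, while early leaves stood well below the other low libraries. The next widest margins were 13.98 times at XLOC_041950, 13.5 times at XLOC_055965 and 12.6 times at XLOC_043616.

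Most members reached 1 FPKM in at least 1 leaf or seed library, most often in mature seeds. Under 1 FPKM in both leaf libraries were 16 members, while 22 were in milk grains and 7 in mature seeds. Counts under 1 FPKM were not made over other loci. The highest leaf or seed value of a member lay between 0.200 and 22.2 FPKM with a median of 3.10. Only 3 members were under 1 FPKM in all 4 of those libraries, namely XLOC_043616, XLOC_011579 (chromosome 10, 21835929 to 21837651) and XLOC_059904, the last of these and XLOC_011579 named after their values were seen. XLOC_011579 was also the member with the lowest flower and root levels, with 10.2 FPKM in flower buds, 13.6 in flowers and 11.7 in early roots. No member was listed at 0 in any library.

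Of the low libraries, mature seeds most often held the highest value of a member. They held the highest of the leaf and seed values at 17 of the 30 members, milk grains at 6, early leaves at 5 and late leaves at 2. This was not counted over other loci, and the rule limits these values, so it is a description. The members had a median of 2.27 FPKM in mature seeds, 0.595 in milk grains, 0.565 in early leaves and 0.4998 in late leaves. The loci with at least 10 FPKM in flowers and roots had medians of 24.8, 17.8, 24.9 and 27.3 FPKM there. The lowest flower or root value of a member was a median of 8.23 times its value in mature seeds, 10.4 times its higher leaf value and 15.95 times its value in milk grains, with 1 FPKM added throughout.

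At the fold, the members just inside were XLOC_025293 (chromosome 2, 6078177 to 6079147) at 4.34 times and XLOC_043509 (chromosome 5, 23204341 to 23219283) at 4.40 times. Just outside were XLOC_023582 (chromosome 2, 19590974 to 19595530) at 3.73 times and XLOC_041942 (chromosome 5, 2010114 to 2015088) at 3.65 times. XLOC_041942 had 185 FPKM in flower buds, 110.9 in flowers and 148 in early roots, higher than most members. It was kept out by 29.6 FPKM in mature seeds, where milk grains had 0.640 FPKM and leaves 1.16 and 0.103. XLOC_023582 had 74.3, 51.7 and 51.2 FPKM in the flower and root libraries. It was kept out by late leaves, with 13.0 FPKM, where early leaves had 12.01 FPKM.

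To see how common this combination of organs was, the same level and fold were applied to each organ and each pair of organs. Flowers and roots shared 30 loci, as against 32 (0.103% of all loci) for flowers and seeds, 43 (0.138%) for flowers and leaves, and 87 (0.279%) for leaves and roots. Roots and seeds shared 10 loci (0.0321%), and leaves and seeds shared 0. Flowers alone had 513 loci (1.64%) and roots alone 1062 (3.41%), so loci of either organ alone were many times more frequent than loci of both. Flowers, leaves and seeds each had to be high in 2 libraries and roots in 1, so these numbers are not on an equal footing, and no replicate allows a test of their differences. With another pseudocount, level, fold or scaling, or on loci with a position of their own, leaves and roots had the most loci of the 6 pairs. The order below that pair changed with the scaling. After median-of-ratios and upper-quartile scaling, flowers and seeds had 41 and 45 loci. Flowers and leaves then had 28 and 27, and flowers and roots 29 and 25.

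**Figure D3:**
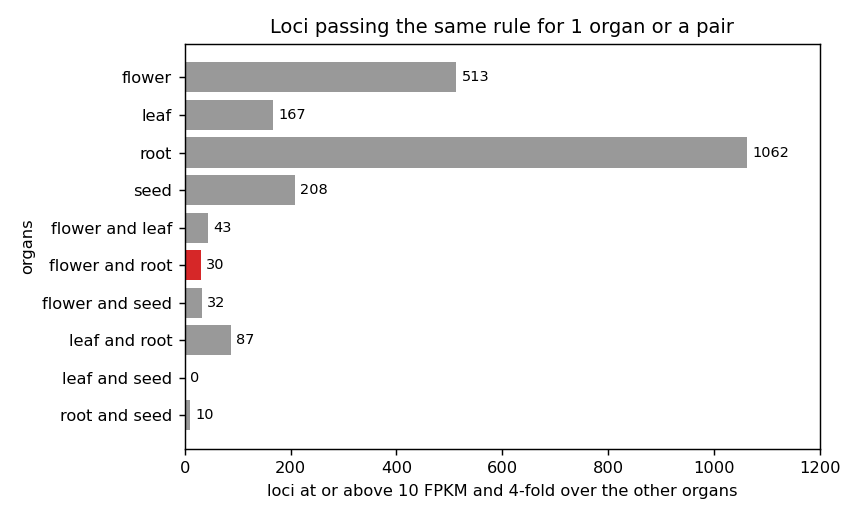
Number of loci (horizontal axis) with at least 10 FPKM in every library of the organs named on the vertical axis and at least 4-fold above all libraries of the other organs, with 1 FPKM added and without the late root-labelled library. The bar for flowers and roots (red) stands at 30, close to flowers and seeds at 32 and below leaves and roots at 87.

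The libraries differed in how far they limited the membership. Without the condition on early roots, 577 loci passed, since most loci of flowers that were low in leaves and seeds were low in roots as well. The 547 loci added in this way had a median of 0.160 FPKM in early roots, and 414 of them were under 1 FPKM. Without mature seeds in the rule, 149 loci passed, and without flowers 61. Leaving out flower buds or a leaf library gave 36 or 37, and leaving out milk grains gave 32. Of the low libraries, mature seeds kept out the most loci.

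The second comparison was between roots and flowers among the members themselves, with the mean of the flower libraries set against early roots. The log2 ratio, with 1 FPKM added here and in all ratios below, ran from -5.26 to 2.28 with a median of -0.20. The median was -0.21 over the 6074 loci at the same level and -0.40 over all 17592 loci that reached 5 FPKM in either. At least 2-fold lower in roots were 10 members, where 13.0% of the loci at the same level and 30.6% of all tested loci were. At least 2-fold higher in roots were 4 members, where the backgrounds were 11.4% and 19.9%. The other 16 members lay within 2-fold. The balance was 9 lower and 4 higher of 29 members with equal sums. After median-of-ratios scaling 7 of 29 members were lower in roots and 6 were higher, and after upper-quartile scaling 5 of 25 were lower and 4 were higher. At 11 members the highest of flower buds, flowers and roots was less than 2 times the lowest, a count that was not made over other loci. A high bud value alone can lower the ratio to the flower mean. Of the 10 members lower in roots, 8 had early roots below both flower libraries. XLOC_041950 and XLOC_026326 had slightly more in early roots than in open flowers. Over all 30 members early roots were below both flower libraries at 12 and above both at 9, also not counted over other loci.

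XLOC_066037, in a span shared by 2 loci (chromosome 9, 12892954 to 12899647), was the member weighted most to flowers. It had 1238 FPKM in flower buds, 686 in flowers and 24.1 in early roots. The low libraries had 0.274 FPKM in early leaves, 0.473 in late leaves, 2.18 in milk grains, 0.490 in mature seeds and 0.418 in the late root-labelled library. Its log2 ratio of roots to flowers was -5.26, the lowest of the 30 members.

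XLOC_048154 (chromosome 6, 12366318 to 12368160) followed with a log2 ratio of -3.28. It had 295 FPKM in flower buds, 355 in flowers and 32.6 in early roots. Milk grains had 6.22 FPKM, mature seeds 0.281, leaves 0.256 before and 0.512 after flowering, and the late root-labelled library 0.734. Milk grains thus held the highest of its low values, unlike at most members. The other members at least 4-fold lower in roots were XLOC_043616 and, named after its values were seen, XLOC_047240 (chromosome 6, 580664 to 586450), 4 in all. Of the loci at the same level 2.8% were at least 4-fold lower in roots, and of all tested loci 16.3%.

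XLOC_025293 was weighted most to roots, with 96.4 FPKM in early roots, 16.2 in flower buds and 21.98 in flowers. Its low values were 2.76 FPKM in early and 1.21 in late leaves, 1.995 in the late root-labelled library, 0.214 in milk grains and 2.96 in mature seeds. The log2 ratio of 2.28 made it the only member at least 4-fold higher in roots, where 4.26% of the loci at the same level and 13.1% of all tested loci were.

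XLOC_055965 (chromosome 7, 8871435 to 8878940) had 113.6 FPKM in early roots, 39.8 in flower buds and 27.6 in flowers. Its log2 ratio was 1.72. Its leaf values were 0.208 FPKM before and 0.494 after flowering, with 0.181 FPKM in the late root-labelled library, 0.669 in milk grains and 1.12 in mature seeds. The other members at least 2-fold higher in roots were XLOC_043509, at 1.09, and XLOC_006029 (chromosome 1, 34769116 to 34772371), at 1.06, the latter named after its values were seen.

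The third comparison followed the members from buds to open flowers. Of the 30 members, 9 were at least 2-fold lower in flowers and 0 were at least 2-fold higher. Among the 6074 loci at the same level, 2.7% were lower and 1.42% were higher by that much. Over all 16038 loci that reached 5 FPKM in either flower library the shares were 4.77% and 4.5%. The median log2 ratio of flowers to buds was -0.45 over the members, -0.03 over the loci at the same level and 0.01 over all tested loci. Flowers were below buds at 20 members and above them at 10, a split that was not counted over other loci. Buds and flowers are both values the rule used, so these counts are a description, and they moved with the rule. Without early roots in it, 83 of 577 loci were at least 2-fold lower in flowers and 38 were higher, and without flower buds 9 of 37 were lower and 5 were higher. Under each of the 3 other scalings 8 to 10 members were lower by 2-fold or more and 0 were higher, and with a pseudocount of 0.1 the numbers were 11 and 1 of 34.

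Lower flower values were seen on both sides of the balance with roots. They made up 5 of the 10 members that were at least 2-fold lower in roots than in the flower mean, 3 of the 16 within 2-fold and 1 of the 4 that were at least 2-fold higher. A bud value enters the flower mean, so these counts share libraries. By the same rule, 59 of 513 loci of flowers alone (11.5%) were at least 2-fold lower in flowers than in buds, and 37 (7.21%) were higher. Loci of flowers and seeds had 5 of 32 lower and 1 higher, and loci of flowers and leaves 1 of 43 lower and 5 higher. Of the loci of roots alone 276 reached 5 FPKM in a flower library, with 42 (15.2%) lower and 13 higher, and of the loci of leaves and roots 27 did, with 0 lower and 7 higher. The difference between these groups was not tested, since each library stands alone.

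XLOC_043616 (chromosome 5, 24583249 to 24584945) differed most, with 267 FPKM in flower buds, 22.9 in flowers and 16.1 in early roots. Its log2 ratio of flowers to buds was -3.49. It was very low elsewhere, with 0.00771 FPKM in early leaves, 0.00767 in late leaves, 0.0144 in the late root-labelled library, 0.354 in milk grains and 0.0496 in mature seeds. Open flowers and roots were close to each other at this locus, and buds stood alone.

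XLOC_051467 (chromosome 6, 23379155 to 23381422) came next, with 115.8 FPKM in flower buds, 21.7 in flowers and 47.7 in early roots, a log2 ratio of flowers to buds of -2.36. The low libraries had 0.116 and 0.0475 FPKM in early and late leaves, 0.0331 in the late root-labelled library, 0.410 in milk grains and 1.55 in mature seeds. Roots lay between buds and flowers. With XLOC_041950, at -2.003, these 2 loci were the 3 members at least 4-fold lower in flowers, against 0.214% of the loci at the same level and 0.436% of all tested loci. Of the 6 members with the highest level held in all 3 libraries, XLOC_063619, XLOC_041950 and XLOC_026326 were at least 2-fold lower in flowers, at -1.87, -2.003 and -1.74.

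In the other direction XLOC_043373 (chromosome 5, 21491659 to 21493705) stood highest, with 16.9 FPKM in flower buds, 33.7 in flowers and 46.8 in early roots, a log2 ratio of 0.96. Its low values ran from 0.135 FPKM in late leaves to 2.04 in mature seeds. XLOC_045486 (chromosome 5, 17962033 to 17964352) had 37.6 FPKM in flower buds, 69.4 in flowers and 21.1 in early roots, a log2 ratio of 0.87, and between 0.0861 FPKM in mature seeds and 1.03 in milk grains elsewhere. Neither reached 2-fold on this scale.

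**Figure D4:**
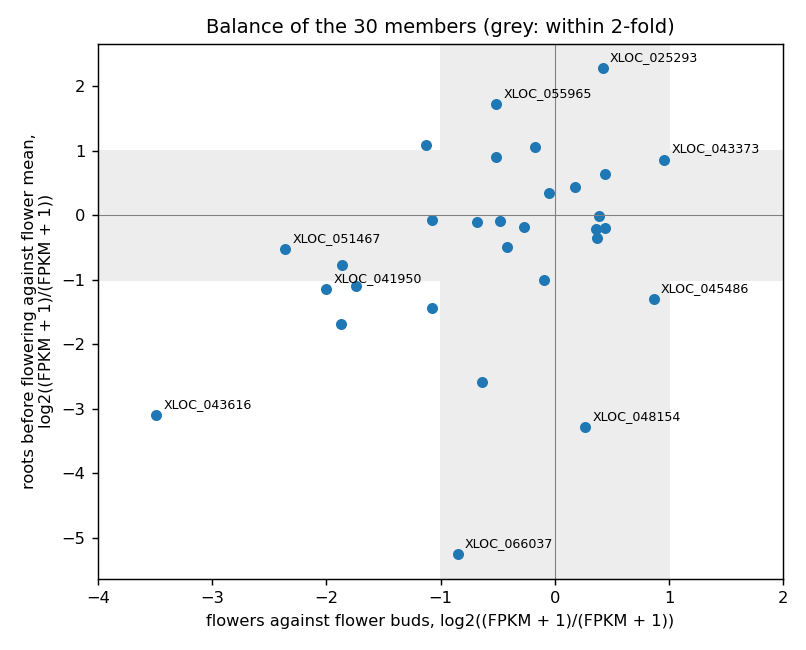
Each of the 30 members is placed by its log2 ratio of flowers to flower buds (horizontal axis) and of early roots to the mean of the flower libraries (vertical axis), with 1 FPKM added, and grey bands mark differences under 2-fold. To the left of the vertical band lie 9 members and to its right 0, while 10 lie below the horizontal band and 4 above it.

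The late root-labelled library held 18 of the 30 members under 1 FPKM, with a median of 0.595 FPKM and a range of 0.0144 to 22.8. All 30 were at least 4-fold lower there than in early roots, where 11.3% of the loci at the same level and 16.0% of all 16269 tested loci were. The median log2 ratio was -4.06. The members were chosen to be low in leaves and this library is close to leaves, so the direction follows from the choice and nothing is read from it. In the ratio to late leaves, the 1 FPKM added puts any locus under 1 FPKM in both libraries within 2-fold. By this measure 29 of the 30 members were within 2-fold of late leaves, which says little where both values were that low.

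The exception was XLOC_043509, with 11.5 FPKM in the late root-labelled library, 3.03 in late leaves and 1.63 in early leaves. It had 59.2 FPKM in early roots, 37.8 in flower buds, 16.7 in flowers, 0.738 in milk grains and 2.71 in mature seeds. Of the 3 members with at least 5 FPKM in either later library it was the only one at least 2-fold higher in the late root-labelled library than in late leaves. That difference was seen at 0.439% of the loci at the same level and 1.03% of all tested loci. XLOC_043509 reached 5 FPKM in the late root-labelled library but not in late leaves. Its direction thus follows in part from the limit for entry, and nothing is read from it. With this library counted among those where a member must be low, XLOC_043509 was lost and 29 members were left. With it counted among those where a member must be high, 0 loci passed.

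**Figure D5:**
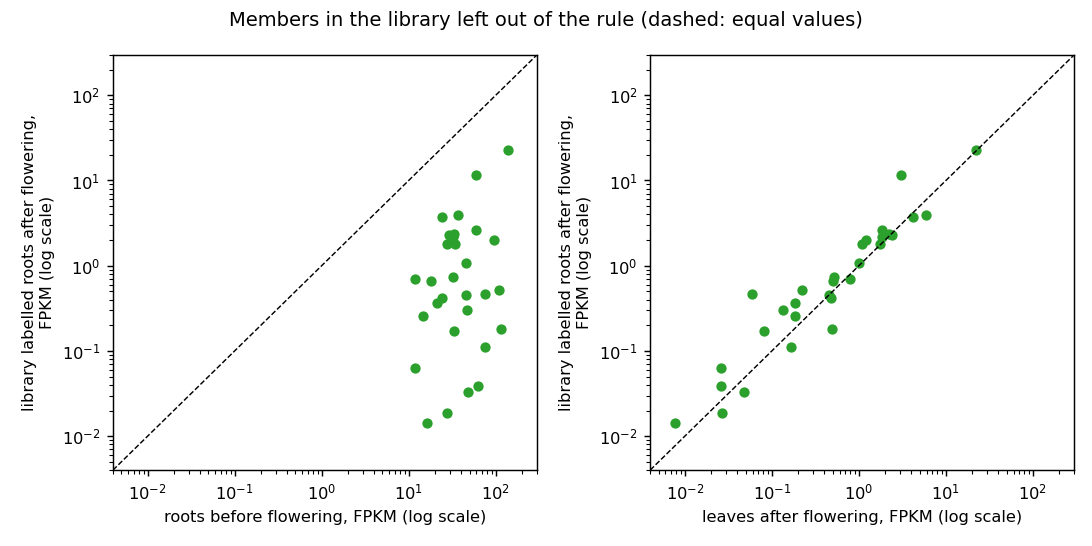
FPKM of the 30 members in the late root-labelled library (vertical axes, log scale) against early roots (left) and late leaves (right), with dashed lines at equal values. All members lie under the line on the left, and 29 of 30 are within 2-fold of late leaves on the right when 1 FPKM is added to both.

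Within the low libraries few values were high enough to compare. From milk grains to mature seeds, 7 members had at least 5 FPKM in either. Higher in mature seeds by 4-fold or more were 4 of these, namely XLOC_000669, XLOC_063619, XLOC_026326 and XLOC_009714, where 15.6% of the loci at the same level and 18.6% of all tested loci were. The 1 member at least 4-fold lower was XLOC_048154, against 2.8% and 7.38%. Between the leaf libraries 4 members had at least 5 FPKM in either, and 1 of them, XLOC_006029, was at least 2-fold lower after flowering, with 5.04 FPKM before and 1.85 after. The background for that was 5.97% of the loci at the same level and 11.9% of all tested loci. Each member named here reached 5 FPKM in its higher library only, so the direction follows in part from the limit for entry. The rule also limits all of these values from above, so they are a description and nothing is read from the shares.

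The members were scattered over the genome. They lay on 10 of the 12 numbered chromosomes, with 5 each on chromosomes 3 and 5, 4 each on chromosomes 1, 2 and 6, and 2 or fewer on the others. Chromosome 5 thus held 16.7% of the members and 8.79% of the loci at the same level. Chromosomes 4 and 12 held 0 members, against 8.33% and 4.46% of those loci. No span held 2 members, and no 2 members were in neighbouring spans. The closest were XLOC_009714 and XLOC_011579 on chromosome 10, with 197.5 kb between the crowded span of the first and the second. XLOC_051467 and XLOC_051507 on chromosome 6 were 527 kb apart.

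A position of their own was given for 22 members, and their spans, introns included, ran from 971 to 14943 bp with a median of 2217.5 bp. The median was 3995 bp over the 4522 loci at the same level with a position of their own, and 3321 bp over all 20892 such loci. Short spans were also found by the same rule for loci of flowers alone, with a median of 1933 bp, and of roots alone, with 1929 bp. No member had a span under 500 bp, as 0.265% of the loci at the same level and 2.79% of all loci with a position of their own did.

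The other 8 members (26.7%) shared a span with further loci, as did 25.6% of the loci at the same level and 33.0% of all loci. Strand was not recorded, so a read where loci overlap cannot be given to either of them, and the part of this in the members' values was not tested. XLOC_059904 (chromosome 8, 21869179 to 21876052) had 25.4 FPKM in flower buds, 23.8 in flowers and 11.8 in early roots. The locus that shares its span, XLOC_062063, had 509 FPKM in early roots, 4.91 in flower buds and 4.16 in flowers. XLOC_063619 had as its partner a locus at 31.9 to 53.3 FPKM in every library, XLOC_065341, and XLOC_066037 had a partner at 3.504 FPKM or less, XLOC_064277. XLOC_009714 shared its span with XLOC_009716, at 708 FPKM in flower buds, 744 in flowers and 0.439 in early roots. Also there was XLOC_009729, at 15.2, 5.15 and 259 FPKM in the same order. The partner of XLOC_051507, XLOC_049015, had 38.9, 43.0 and 35.5 FPKM in that order and 27.5 in early leaves. Partners of XLOC_024224 and XLOC_006029 were at 2.49 FPKM or less. XLOC_032497 lies in a span of 36 loci, and the others there are not given. Restricted to loci with a position of their own, the rule gave 22 members.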

How the data were processed

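Non-directional poly(A) libraries, 1 for each of 8 groups, were sequenced paired-end for 100 cycles, per the labels' protocols. The authors deposited 1 table of FPKM values, with 1 value per locus and library. Per the submitters' processing notes the tools were TopHat, Cufflinks and Cuffdiff, with versions and settings not given in the sources used here. Per the file headers, positions are on MSU Rice Genome Annotation Project Release 7. The lowest row maximum is 1.00001 FPKM, so loci that stayed below 1 FPKM everywhere are not analysed here. The values hold no read counts, so depth and counting error are unknown.

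From this table the rule, the ratios log2((FPKM + 1)/(FPKM + 1)), which understate changes of low loci, and the counts at 2-fold and 4-fold were computed in Python 3.11.15 with pandas 2.3.3. A locus entered a comparison when its higher value reached 5 FPKM. Positions are 1-based, and span lengths count both ends. The code of the rule and of the scalings was checked on the deposited values, with loci planted above and below the fold and with known scale factors. The members and comparisons were chosen with earlier results of these data known. Loci were named by rank: the 6 highest levels held in all 3 libraries, the 4 widest margins, the 2 highest and 2 lowest in each ratio, the 2 highest in the late root-labelled library, and the 2 nearest inside and outside the fold. Alternatives were another pseudocount, level, fold, scaling, locus set and each library left out of the rule.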

Additional observations from a re-analysis of the deposited data

How the results depend on the processing

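No paired analysis was possible because each group held 1 library and no test was made. The number of members was 51 with a 3-fold rule and 8 with an 8-fold rule, 61 without flowers in the rule, 577 without early roots, 149 without mature seeds, and 0 with the late root-labelled library among the high ones. It lay between 21 and 39 under the other 12 alternatives, and 25 of the 30 members passed after upper-quartile scaling and 28 after median-of-ratios scaling. A share of members was taken as moved when it left the 95% binomial interval of its main value. Members are not replicates and the sets of loci overlap, so this interval measures no error. It served only as a wide limit for listing, and shares inside it are not listed here. The share at least 2-fold lower in flowers than in buds, 30% in the main setting, was 50% with the 8-fold rule, 54.1% without flowers and 14.4% without early roots in the rule. The share at least 2-fold higher was 13.5% without flower buds. The share at least 2-fold lower in roots than in flowers was 16.4% without flowers and 96.01% without early roots, and the share at least 2-fold higher was 31.1% and 0.693%. A share that compares the left-out library is no longer held by the rule on that side; the cause of the other shifts was not tested. The share at least 4-fold lower in the late root-labelled library was 12.3% without early roots in the rule. The share in shared spans was 12.5% with the 8-fold rule, and has no value where only loci with a position of their own are used. For the other pairs of organs, flowers and leaves had 70 loci with a pseudocount of 0.1, 130 with the 3-fold and 4 with the 8-fold rule, 28 after median-of-ratios and 27 after upper-quartile scaling. Flowers and seeds had 21 loci at 20 FPKM, 53 with the 3-fold and 13 with the 8-fold rule. Leaves and roots had 136 and 25 with these folds, leaves and seeds 1 with the 3-fold rule, and roots and seeds 6 at 20 FPKM and 6 with the 8-fold rule. Why the scalings moved the loci of flowers and leaves was not tested. Depth is unknown, and with it the precision of values near 0.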

Other observations

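Mature seeds kept more loci out of the group than any other low library. The 119 loci that passed without mature seeds in the rule and were not members had medians of 66.0 FPKM in flower buds, 42.5 in flowers and 30.8 in early roots. In mature seeds they lay between 2.44 and 475 FPKM with a median of 21.2, and 90 of them had at least 10 FPKM there. The 6074 loci at the same level had a median of 24.8 FPKM in mature seeds, and the count at 10 FPKM was not made over them. The 119 loci were kept out by mature seeds alone, so their raised values there follow from the choice and nothing is read from them. Milk grains and leaves were low at the 119 loci, as the rule still required. By the rule that asks for milk grains as well, 34 loci combined flowers, roots and seeds.

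On chromosome 5 the member XLOC_041950 and the locus just outside the fold, XLOC_041942, lie 65.5 kb apart with 5 loci between them. Both had over 60 FPKM in flower buds, flowers and early roots and under 2 FPKM in the leaf libraries and milk grains, and both had their highest low value in mature seeds, at 3.83 and 29.6 FPKM. This pair was noticed after the values were seen. XLOC_041942 was named for lying just outside the fold, so its likeness to the member in these libraries follows in part from that choice.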
